A study of Mus musculus with 2 samples.

Results

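The cells described here are the 724 barcodes of the PHD2 knockout library in which genes of chromosome 11 took more than 9.625% of the counted transcripts. They made up 9.81% of the 7383 knockout barcodes kept (95% exact binomial interval 9.14 to 10.5), out of 16610 barcodes kept in both libraries. Members were chosen on a measured value: the share of unique molecular identifiers (UMIs, each standing for 1 captured transcript) that fell on chromosome 11 genes. Mitochondrially encoded genes, Rpl and Rps ribosomal protein genes and genes at 500 CPM (UMIs scaled to the library) or more in either library were left out of both sides of that share. The share and the genes in it therefore describe the choice and are given without a test. The UMIs of the chromosome 11 genes left out of the share did not enter it. Genes off chromosome 11 entered only through the total that the share is taken over. The wild type library took part only through the 500 CPM limit that decided which genes were left out.

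The study sequenced RNA of single cells in 2 libraries on the 10x Genomics platform. The cells were AB2.2, an established mouse embryonic stem cell line, which had been driven toward mesendoderm, the common source of mesoderm and endoderm, for 4 days. Group WT was wild type and group PHD2-KO had lost PHD2, the prolyl hydroxylase encoded by Egln1 that marks hypoxia-inducible factors for destruction when oxygen is present. Each group is 1 library. The sources used here do not say whether the knockout is 1 clone, which part of Egln1 was altered or whether cultures were pooled.

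Mouse embryonic stem cells in culture are known to gain and lose whole chromosomes, and chromosomes 8 and 11 are among those most often reported as gained. A cell with an extra copy of a chromosome generally makes more transcript from most of its genes, so the share of transcripts from a chromosome is often read beside its copy number. No DNA measurement was used here, and no copy number is given.

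Without replicates there is no test between groups, and no p-value is given. Levels are UMIs summed over cells and scaled to CPM (counts per 1e6) of the UMIs of nuclear genes off chromosome 11, so that chromosome 11 itself does not move the scale. Before log2 ratios were taken, 1 CPM was added to both levels, so ratios of weakly expressed genes are drawn toward 0. Folds are plain ratios with 95% conditional binomial intervals, medians over genes carry 95% order-statistic intervals over those genes, and all intervals on levels, folds and shares cover counting error only. A gene counted as measured where members or other knockout cells reached 20 CPM, and was called higher or lower at a ratio of 1.5-fold or more.

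The members formed a hump of their own in the distribution of chromosome 11 share. Their median share was 10.99%, and that of the 6659 other knockout barcodes was 7.78%. The 3 members nearest the limit had shares of 9.6395%, 9.64073% and 9.64074%. The 3 nearest barcodes outside it had 9.62149%, 9.61293% and 9.60142%, and the highest member had 13.52%. Few cells lay between the humps: 80 knockout barcodes fell within 0.5 percentage points below the limit and 75 within 0.5 points above it. The share varied between members by an SD of 0.577 points over 724 cells, where counting alone would give 0.338 points, and between the other knockout cells by 0.464 points against 0.313 from counting.

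**Figure D1:**
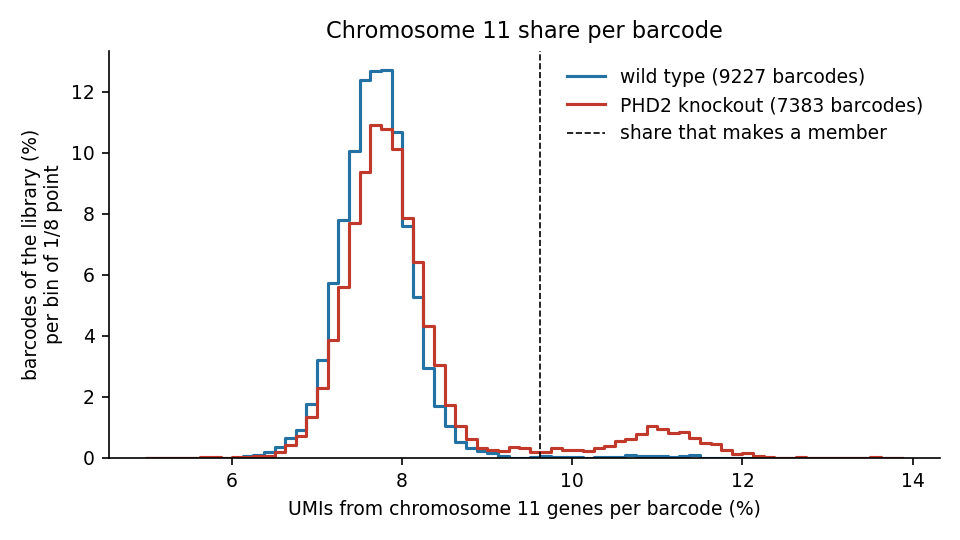
Percent of each library's barcodes (vertical axis) by percent of UMIs from chromosome 11 genes (horizontal axis, bins of 0.125 points), for the knockout (red) and wild type (blue) libraries, with the limit for members as a dashed line. The knockout line has a small separate hump around 11% that holds the 724 members, and the wild type line has few barcodes there.

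Wild type cells above the same share were rarer. They were 70 of 9227 kept barcodes, or 0.759% (0.592 to 0.958), and their median share was 10.8%. The wild type barcodes below it had a median of 7.69%, close to that of the other knockout cells. Of 22 barcode sequences that both libraries held, 18 were kept and 1 of those was a member's.

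The members carried more transcripts per cell than the other knockout cells, also apart from chromosome 11. The median was 25167 UMIs in members (lowest 2378, highest 81140) and 20921 in the other knockout cells (2098 to 242690), and over nuclear genes off chromosome 11 it was 21221 against 18510. Members had a median of 4320 genes detected and the others 3841. After each cell was thinned to 12000 UMIs off chromosome 11, which left out 42 members and 524 others, the medians were 2915 and 2803 genes. Mitochondrial genes took a median of 1.45% of UMIs in members and 1.31% in the others, and Rpl and Rps genes took 35.5% and 36.8%. In wild type the cells above the share had a median of 19703 UMIs and those below it 20758, so the greater depth was not seen there. Among the knockout barcodes with the highest doublet scores were 5.66% of the members and 6.23% of the others, and 13.1% and 14.0% of the barcodes within 1 point below and above the limit.

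The share of chromosome 8 also divided the cells, and the members were unevenly placed on it. Members had a median chromosome 8 share of 4.93% and the other knockout cells 6.58%. Of the members, 511 (70.6%, 67.1 to 73.9) lay below the knockout median of 6.46%, where 47.8% of the other cells lay. Members were 13.8% of the knockout barcodes below that median and 5.77% of those at or above it. In wild type, 17.1% of the 70 cells above the chromosome 11 share lay below the same chromosome 8 value (9.18 to 28.0) and 19.9% of the others did. A share falls when another rises, which lowers the chromosome 8 share of all members somewhat: within the cells below the split, the medians were 4.78% in members and 4.99% in others. Every comparison off chromosome 11 was therefore also made within the cells below and within the cells at or above the chromosome 8 median.

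**Figure D2:**
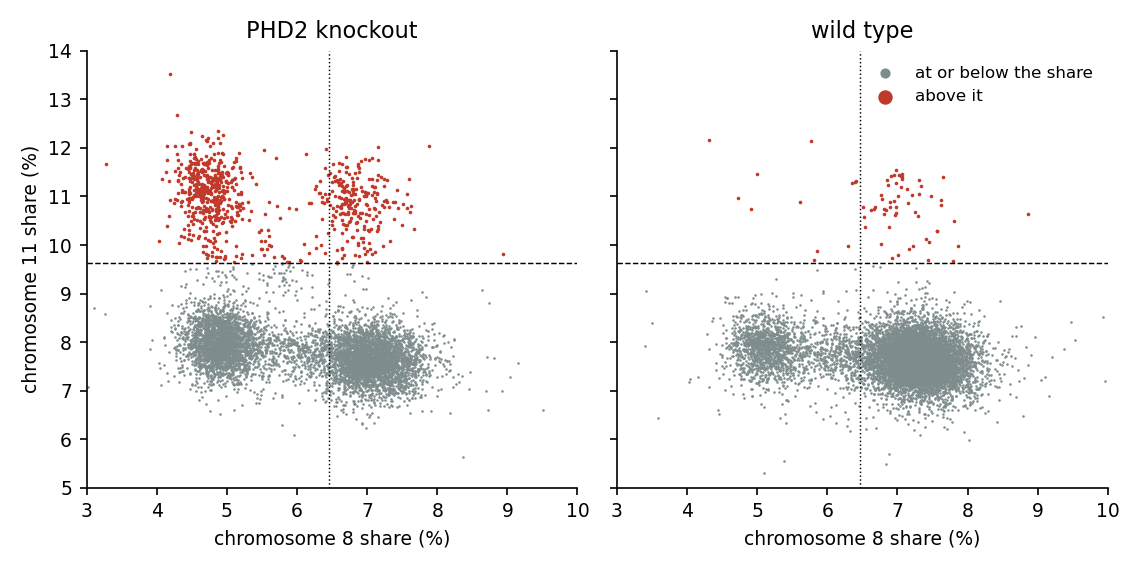
Each point is 1 barcode, placed by its chromosome 8 share (horizontal, percent) and chromosome 11 share (vertical, percent), with knockout on the left and wild type on the right. Red points lie above the limit (dashed line), the dotted line is the knockout median of chromosome 8 share, and 7 knockout and 1 wild type barcodes lie outside the axes. Knockout members fall into a large group on the left of the dotted line (511 barcodes) and a smaller one on its right (213).

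Genes of chromosome 11 were higher in members along the whole chromosome. Of 461 measured genes in the share, 459 were above 0 on the log2 scale and their median log2 ratio was 0.60 (0.59 to 0.62), which follows from the choice of members. The 32 measured genes that the share left out, highly expressed genes and ribosomal protein genes, had a median of 0.53 (0.47 to 0.56), and all 32 were above 0, from 0.29 to 0.88. The 4598 measured genes off chromosome 11 had a median of 0.07. In wild type, cells above the share against cells below it gave 0.47 (0.38 to 0.52) for the genes left out and 0.06 off chromosome 11.

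The genes left out of the share include some of the most abundant transcripts of the cell. Npm1 (ENSMUSG00000057113, chr11:33152287-33163206 on mm10, minus strand), a nucleolar chaperone of ribosome assembly, was at 11397 CPM in members and 7791 in other knockout cells, and at 11108 and 8561 in wild type cells above and below the share. Its fold in the knockout was 1.46 (1.46 to 1.47). Ppia, a peptidyl-prolyl isomerase, was at 8924 CPM in members and 6175 in others. The ribosomal protein genes Rpl19, Rps27a and Rpl23 had log2 ratios of 0.55, 0.49 and 0.44. These 5 genes were higher above the share in both libraries. The highest of the group were Atox1, a copper chaperone, at 0.88, Nhp2, of the box H/ACA ribonucleoproteins, at 0.74, and C1qbp, a mitochondrial matrix protein, at 0.67. The lowest were ubiquitin B (Ubb) at 0.29, the initiation factor Eif1 at 0.31 and gamma-actin (Actg1) at 0.31.

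**Figure D3:**
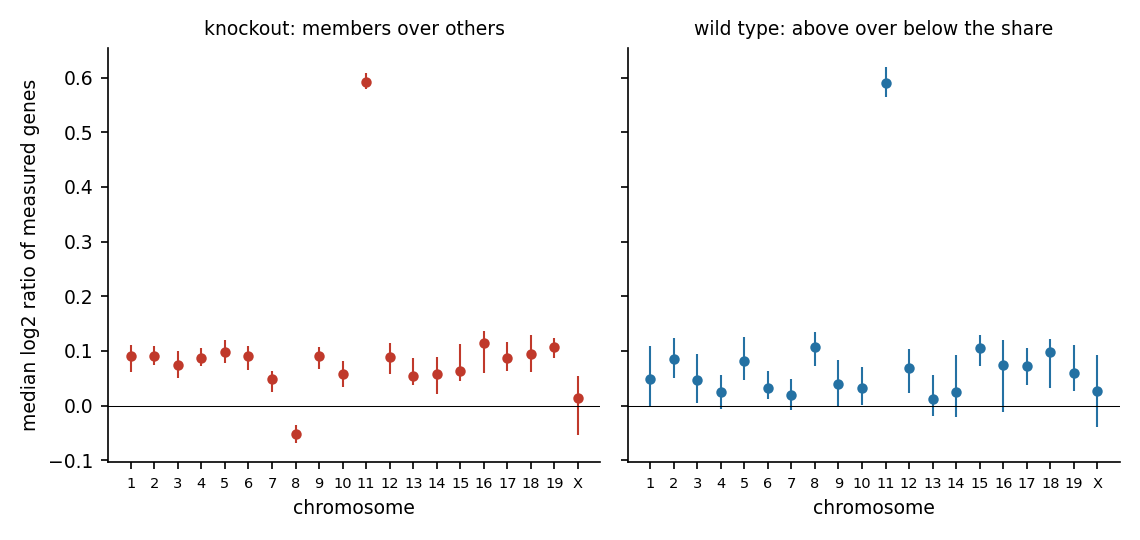
Median log2 ratio of measured genes (vertical axis) on each chromosome (horizontal axis), for knockout members over other knockout cells (left) and wild type cells above over below the same share (right). Bars are 95% order-statistic intervals over genes. Chromosome 11 stands at 0.59 in both panels, and of the others chromosome 16 is highest in the knockout at 0.11.

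Divided by position, chromosome 11 gave medians between 0.56 and 0.62 in all 13 windows of 10 Mb. The share computed from the genes nearer the centromere picked 97.5% of the same members, and that from the remaining, distal genes 95.4%, when as many cells were taken. Both sets of genes are part of the share that chose the members, so these overlaps are partly built in. Of the 724 cells picked by the genes nearer the centromere, 673 (93.0%) were also picked by the distal genes. On the other autosomes the medians ran from -0.05 on chromosome 8 to 0.11 on chromosome 16. Within the cells below the chromosome 8 median, chromosome 8 was at 0.02. Chromosome X had a median of 0.01 over all knockout cells, 0.03 below the chromosome 8 median and -0.08 at or above it. Other knockout cells against all wild type cells gave 0.17 for the genes of the share and 0.11 off chromosome 11, and members against wild type gave 0.74 and 0.18.

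**Figure D4:**
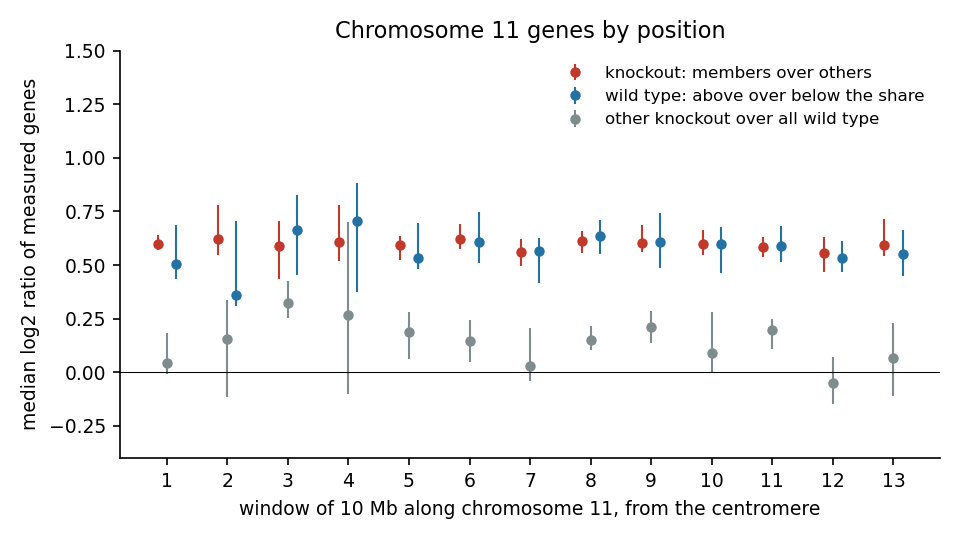
Median log2 ratio of measured genes in 13 windows of 10 Mb along chromosome 11 (numbered from the centromere), with 95% order-statistic intervals over genes. Members over other knockout cells (red) lie between 0.56 and 0.62 in every window, wild type cells above over below the share (blue) are near them, and other knockout cells over wild type (grey) lie lower.

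Grouped by role, the chromosome 11 genes stood at like log2 ratios in most groups. Since the share holds most of these genes, the counts only describe the members. Of the share's 461 measured genes, 272 were at 1.5-fold or more and 0 were 1.5-fold lower. Of 15 measured genes of chromatin and transcription 12 were at 1.5-fold or more, with a median of 0.66. Among them were Suz12, a core subunit of Polycomb complex PRC2, at 0.66, the RNA polymerase II subunit Polr2a at 0.70 and the Mediator subunit Med1 at 0.82. Of 15 cell division genes 7 passed, with a median of 0.56. Top2a, the topoisomerase that untangles replicated DNA, was at 411 CPM in members and 256 in others, and the DNA repair gene Brca1 was at 31.6 and 18.3. Trp53, which encodes p53, was at 230 and 192 CPM, a log2 ratio of 0.25, and its target Ccng1, also on chromosome 11, was at 321 and 186.

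Of 7 measured signalling genes on the chromosome, 5 passed 1.5-fold. The ligand Wnt3, which the embryo needs for its primitive streak, was at 57.7 CPM in members and 37.5 in others, and Axin2, a target and inhibitor of Wnt signalling, was at 49.5 and 31.6. Cytoskeleton and adhesion genes had the lowest median among these groups but for the 3 lineage factors, 0.40, with 2 of 10 past 1.5-fold. Krt19, a simple epithelial keratin, was lower in members at 143 CPM against 209. It and Specc1 were the only measured genes of chromosome 11 below 0. Krt19 was also lower above the share in wild type, at 24.4 CPM against 78.6.

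The highest chromosome 11 gene was Ifi35 (ENSMUSG00000010358, chr11:101448407-101458698, plus strand), an interferon-induced gene. It was at 56.2 CPM in members and 15.5 in other knockout cells, 3.63-fold (3.36 to 3.93), and at 38.2 (47 UMIs) and 6.85 in wild type cells above and below the share. Irf1, a transcription factor of the interferon response, was at 78.6 CPM in members and 38.0 in others, and at 30.9 and 15.1 in wild type. Irgm1, an interferon-inducible GTPase, was at 36.4 and 19.2 CPM. Igtp, of the same GTPase family, stayed under the 20 CPM needed to count as measured, at 11.7 and 3.91. Irgm1, Igtp and Xaf1 were looked up after the values of Ifi35 were seen. Xaf1, another interferon-induced gene of the chromosome, had a log2 ratio of 0.49 in the knockout and -0.12 in wild type, so these genes did not all stand above the chromosome's median.

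Off chromosome 11, 51 of 4598 measured genes (1.11%) were higher in members and 54 (1.17%) were lower. Those 2 shares are the background for every count of listed genes below. The division between higher and lower depends on the scale: of the called genes 48.6% were higher as scaled here, 30.6% (33 higher, 75 lower) as CPM over all UMIs and 29.9% (35 higher, 82 lower) with a median-of-ratios size factor, which moved the off-chromosome median from 0.07 to 0. Of the same 4598 genes, within the cells below the chromosome 8 median 45 (0.979%) were higher and 61 (1.33%) lower, and at or above it 74 (1.61%) and 101 (2.2%). Over all knockout cells and in both of these sets at once, 30 genes were higher and 37 lower. Chromosome X held 176 of the 4598 genes, 3 of the 61 lower below the chromosome 8 median and 27 of the 101 lower at or above it. At or above that median the median chromosome X share was 2.95% in members and 3.48% in others.

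The wild type library, which took part in the choice only through the 500 CPM limit, gave mostly the same directions. Cells above against below the share there had 209 genes (4.55%) higher and 160 (3.48%) lower, on 70 cells, so counting noise is larger. Of the 51 genes higher in knockout members, 47 were above 0 in wild type and 32 were 1.5-fold higher, which is 62.7% of the 51 and 15.3% of the 209. Over all measured genes 58.9% were above 0 there. Of the 54 genes lower in members, 49 were below 0 in wild type and 30 were 1.5-fold lower, which is 55.6% of the 54 and 18.8% of the 160. Over all measured genes 41.1% were below 0 there. The named 10 highest and 10 lowest genes kept their sign in wild type, where 9 of each 10 passed 1.5-fold. They also kept it in both chromosome 8 sets, but those sets are parts of the cells on which the genes were picked.

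**Figure D5:**
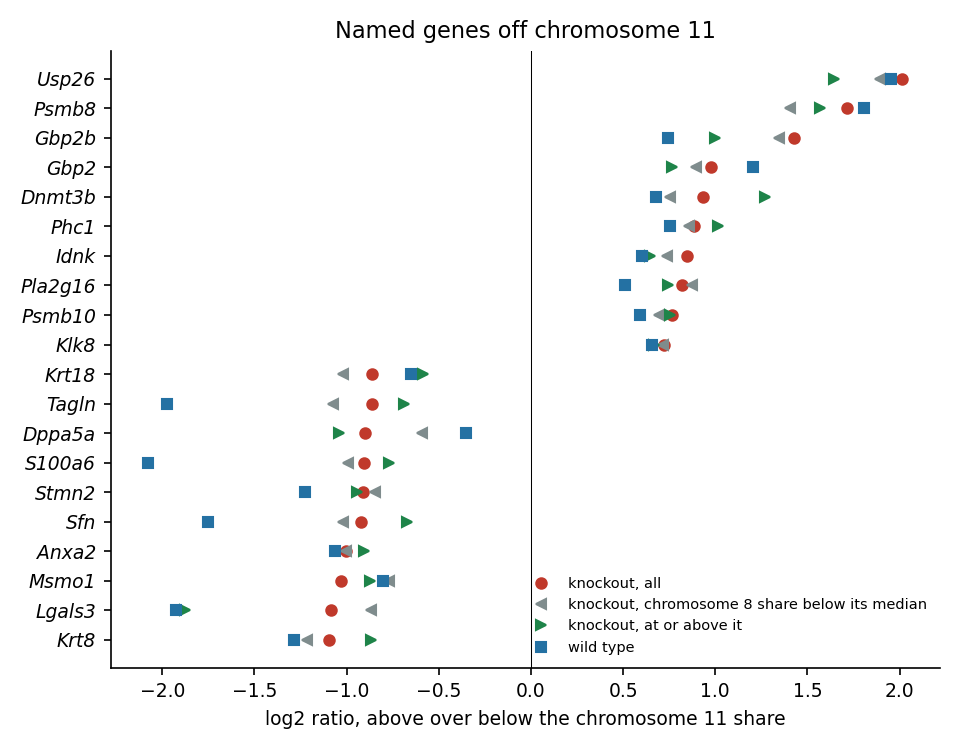
Log2 ratio of cells above over cells below the chromosome 11 share (horizontal axis) for the 10 highest and 10 lowest named genes off chromosome 11, in the whole knockout library (red), its cells below (grey) and at or above (green) the chromosome 8 median, and wild type (blue). All points of a gene lie on the same side of 0, and the wild type points of the lower genes reach -2.08.

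Over all knockout cells, the list of interferon response and antigen processing held the most genes called higher among the lists off chromosome 11. Of 10 measured genes of that list off chromosome 11, 5 passed 1.5-fold upward and 0 downward, and the median log2 ratio was 0.54. Below the chromosome 8 median 4 of these 10 were called higher (median 0.41), and at or above it 3 were (median 0.51). The list of formative epiblast genes had 4 called higher in each of those sets. In wild type 4 of the 10 were 1.5-fold higher above the share. Psmb8 (ENSMUSG00000024338, chr17:34197721-34201454, plus strand), a catalytic subunit of the immunoproteasome, was at 200 CPM in members (193 to 207) and 60.2 in other knockout cells (59.0 to 61.6). In wild type it was at 61.8 CPM above the share (76 UMIs) and 17.0 below. The fold was 3.32 in the knockout (3.19 to 3.46), and the log2 ratio was 1.41 below and 1.57 at or above the chromosome 8 median. At equal depth 70.4% of members held a Psmb8 UMI and 33.6% of the others did (78.9% and 41.8% without thinning).

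The other catalytic subunits of the immunoproteasome were higher too. Psmb9 was at 31.6 CPM in members against 14.0, and Psmb10 at 327 against 192. Psme2, a subunit of the proteasome activator PA28, was at 482 and 298 CPM. The constitutive subunit Psmb5, which Psmb8 replaces in the immunoproteasome, was at 760 and 755, and of 23 measured proteasome genes off chromosome 11 none was called, with a median of 0.04. Isg15, a ubiquitin-like modifier induced by interferon, was at 46.2 and 20.3 CPM. The class I heavy chain gene H2-D1 was at 47.0 and 31.2 CPM and H2-K1 at 74.1 and 51.9, the latter under 1.5-fold. Within the chromosome 8 sets H2-D1 was under 1.5-fold in both, with log2 ratios of 0.47 below the median and 0.35 at or above it. Psmb9 was under 1.5-fold at or above the median, at 0.53. Ifitm2 and Ifitm3, interferon-induced membrane proteins, had log2 ratios of -0.09 and -0.15. The guanylate-binding protein genes Gbp2b and Gbp2, which encode interferon-inducible GTPases, were at 73.8 against 26.8 CPM and at 59.9 against 29.9. Gbp3 was at 30.7 against 8.19 CPM. In wild type it was not higher, at 0.813 CPM (1 UMI) above the share and 0.944 below.

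For each of the 17 listed genes of interferon response and antigen processing, called or not, 250 bases before the start were searched. So were those of Gbp2b, Gbp2, Psme2, Ifi35, Irgm1 and Igtp. The search was for letters that transcription factors of the interferon response are known to bind. The sequences come from RefSeq promoters on GRCm38.p6, and 22 of 23 genes looked up were matched. The motifs were TTCNNNGAA (a palindrome) and GAAANNGAAA (on both strands), and matches may overlap. They were chosen after the values were seen. Of the 22 genes, 4 held the first and 10 the second, and of all 32851 promoters 7.02% and 2.98% did over the same length. Of the 16 matched genes of the list alone, 3 held the first and 6 the second. The genes searched beside the list were taken with their higher levels in members known. The pooled counts are therefore no independent support. Of the genes with no letters of an annotated gene in that window, 1 with overlapping matches, 1 with a single match of the second motif and 1 with the first motif are shown, 5′ to 3′ on the gene's strand, with the matches in capitals.

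Isg15 (chr4:156200819-156201068, minus strand): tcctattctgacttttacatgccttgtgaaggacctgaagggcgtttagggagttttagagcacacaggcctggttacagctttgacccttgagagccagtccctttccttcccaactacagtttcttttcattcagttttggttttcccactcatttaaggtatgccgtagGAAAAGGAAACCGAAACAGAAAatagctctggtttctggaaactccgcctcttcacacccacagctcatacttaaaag

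Gbp2b (chr3:142594597-142594846, plus strand): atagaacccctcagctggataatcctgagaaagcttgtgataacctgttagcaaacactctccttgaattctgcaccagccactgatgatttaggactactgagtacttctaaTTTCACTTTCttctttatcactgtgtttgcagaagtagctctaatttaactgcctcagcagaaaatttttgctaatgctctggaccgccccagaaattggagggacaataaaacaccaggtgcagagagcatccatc

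Irf1 (chr11:53769764-53770013, plus strand): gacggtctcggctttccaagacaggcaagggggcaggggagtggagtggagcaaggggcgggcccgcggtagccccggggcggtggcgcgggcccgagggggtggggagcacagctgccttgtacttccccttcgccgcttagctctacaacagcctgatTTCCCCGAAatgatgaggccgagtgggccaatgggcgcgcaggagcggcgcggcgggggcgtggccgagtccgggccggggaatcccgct

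Isg15 held 3 matches of GAAANNGAAA, each sharing bases with the next. Gbp2b held 1, and Gbp2 held the same 10 letters, TTTCACTTTC, nearer its start, at bases -59 to -50 against -137 to -128. Irf1 held TTCCCCGAA and Psmb8 held TTCCCAGAA. Neither motif was found before Psmb9, Psmb10, H2-D1, Ifi35 or Psme2, which says only that these letters are not in that window. Ifitm2, B2m, Bst2, Ifit1 and Ifit3 also held matches and were not called, so the counts of matches are not those of the genes called higher. Bst2, Ifit1 and Ifit3 did not all reach the 20 CPM without which a gene could not be called.

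Genes of the epiblast on its way out of naive pluripotency were divided. Of 11 measured formative genes, 3 were called higher and 1 was called lower (median 0.31). Dnmt3b (ENSMUSG00000027478, chr2:153649450-153687730, plus strand), a de novo DNA methyltransferase, was at 164 CPM in members and 85.1 in other knockout cells, 1.92-fold (1.84 to 2.01), and at 212 and 132 in wild type above and below the share. At equal depth 68.2% of members and 53.6% of others held a Dnmt3b UMI. Tcf15, a helix-loop-helix factor of primed cells, was at 31.5 and 12.2 CPM, and the POU factor Pou3f1 at 44.4 and 22.3. Fgf5, the usual marker of the post-implantation epiblast, went the other way at 18.2 and 26.0 CPM, under 1.5-fold, and the 14-3-3 protein gene Sfn was lower at 141 and 268.

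Naive pluripotency genes were lower in 2 of 3 measured, Dppa5a at 376 CPM against 701 and Klf5 at 19.5 against 33.0. The third, Zfp42, was at 26.9 and 40.4. Over all knockout cells general pluripotency genes were not called in any of 12: Pou5f1, which encodes Oct4, was at 127 and 128 CPM, Sox2 at 32.5 and 27.8, and Nanog at 70.5 and 49.2. Below the chromosome 8 median 1 of the 12 was called higher, and at or above it 2 were. At equal depth more members held a Nanog UMI, by 4.49 points below that median (-0.27 to 9.27) and 15.8 at or above it (8.64 to 22.9). The direction of Nanog was not shared by wild type, where cells above the share were at 24.4 CPM and those below at 39.4.

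The measured gene with the largest log2 ratio, on or off chromosome 11, was Usp26 (ENSMUSG00000055780, chrX:51753959-51801233, minus strand), a deubiquitinating enzyme known from testis. It was at 72.1 CPM in members and 17.1 in other knockout cells, 4.22-fold (3.93 to 4.52), and at 49.6 (61 UMIs) and 12.1 in wild type above and below the share. At equal depth 39.9% of members and 10.8% of others held a Usp26 UMI, and 26.2% and 7.24% in wild type. Phc1, of Polycomb complex PRC1, was at 91.9 and 49.3 CPM. Idnk, a gluconokinase, was at 153 and 84.4, the phospholipase gene Pla2g16 at 61.7 and 34.5, and the serine protease gene Klk8 at 116 and 70.1. Of the Wnt ligand genes called, Wnt8a was higher at 26.2 and 12.5 CPM and Wnt4 was lower at 9.75 and 24.5.

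Simple epithelial keratins were lower in members. Of the measured genes Wnt4, Nupr1 and Triml2 were lowest, with log2 ratios of -1.24, -1.15 and -1.14, and Krt8 was the lowest of the genes that reached 50 CPM. In wild type Wnt4 was at -1.04, Nupr1 at 0.03 and Triml2 at 0.39. Triml2 lies on chromosome 8 and was at -0.64 below the chromosome 8 median and -1.06 at or above it. Krt8 (ENSMUSG00000049382, chr15:101996698-102004482, minus strand) was at 185 CPM in members (178 to 192) and 397 in other knockout cells (393 to 400), 2.15-fold lower (2.07 to 2.23). It was at 76.4 and 187 in wild type. Its partner in the filament, Krt18, was at 185 and 338, and with Krt19 the 3 keratins were all lower in members. Of 8 measured epithelial genes off chromosome 11, 3 were lower (Krt8, Krt18 and the desmosome gene Dsp) and 0 were higher, while E-cadherin (Cdh1) was at 71.1 and 73.8 CPM and the adhesion gene Epcam at 346 and 272. At equal depth 60.0% of members and 72.7% of others held a Krt8 UMI (73.6% and 81.3% without thinning).

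Of 11 measured contractile genes 1 was lower, with a median of -0.40, and 2 were lower below the chromosome 8 median and 1 at or above it. In wild type 8 of the 11 were lower above the share, with a median of -0.69. That gene, Tagln, encodes an actin-binding protein and was at 269 CPM against 489, and in wild type at 227 and 892. Tpm1, Myl6 and Actb had log2 ratios of -0.45, -0.42 and -0.31. Anxa2, an annexin, was at 45.5 and 92.2 CPM, S100a6 at 193 and 362, and the galectin Lgals3 at 54.6 and 117. S100a6 stood at 57.7 and 246 in wild type. The intermediate filament gene Vim was at 261 and 403, and Stmn2, a microtubule regulator, at 148 and 278. Msmo1, of cholesterol synthesis, was at 29.1 and 60.4 CPM. It lies on chromosome 8, and its log2 ratio was -0.77 and -0.88 within the 2 chromosome 8 sets. Chromosome 8 held 296 of the 4598 measured genes off chromosome 11 and 9 of the 54 lower ones. It held 6 of the 61 lower genes below the chromosome 8 median and 8 of the 101 at or above it.

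Few genes of the growth and stress lists were called. Among 18 S phase and 19 G2 and M phase genes off chromosome 11, 0 were called, with medians of 0.01 and 0.04. Of 12 p53 targets 0 were called (median 0.01), and Cdkn1a, the cell cycle inhibitor p21, was at 370 and 360 CPM. Respiratory chain genes (26, median 0.03), glycolysis genes (12, median 0.12) and targets of hypoxia-inducible factors (8, median 0.11) had 0 called. At or above the chromosome 8 median 2 of those 8 targets, the mitophagy gene Bnip3 and the kinase gene Pdk1, were called higher and the median was 0.37, and below it 0 were called, with a median of 0.01. Among 15 genes of the ATF4 and unfolded protein responses 1 was called, Nupr1, lower at 17.2 and 39.3 CPM, and the median was -0.20 (-0.36 to -0.08), under the 0.07 of all genes off chromosome 11. Of 11 immediate early and dissociation stress genes 1 was called, Junb, lower at 56.5 and 88.5 CPM, with a median of -0.15 (-0.51 to 0.32). Of 15 heat shock and chaperone genes Hspb1 alone was called, lower at 208 and 373 CPM, while Hspd1 and Hspe1 had log2 ratios of 0.25 and 0.34.

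Primitive streak genes were at similar levels in members and other knockout cells. Of 10 measured, 0 were called, with a median of 0.14. T (brachyury), the T-box factor of the streak, was at 404 CPM and 364. At equal depth 82.7% of members held a T UMI and 81.9% of the others, a difference of 0.76 points (-2.41 to 3.59), against 3.28% and 6.05% in the 2 sets of wild type cells. The 2 chromosome 8 sets differed in sign: the difference was 2.42 points below the median (-1.13 to 5.47) and -7.00 at or above it (-13.8 to -1.07). Mixl1, a homeobox gene of streak cells, was in fewer members in both sets, by -9.25 and -8.70 points. Mesp1, of nascent mesoderm, was at 281 and 247 CPM over all knockout cells. Its cells at equal depth were 35.5% of members against 42.4% of others below the chromosome 8 median, and 24.1% against 25.3% at or above it, and its log2 ratio of levels was 0.01 and -1.33. Cdx2, a factor of the posterior streak, was higher at 28.0 and 17.6 CPM, and 22.3% of members and 16.2% of others held it. Its log2 ratio was 0.42 below the chromosome 8 median, under 1.5-fold, and 0.75 at or above it. The difference in cells with a Cdx2 UMI was 4.53 points below the median (0.61 to 8.78) and 3.85 at or above it (-0.85 to 9.79).

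Markers of 5 of the other cell types that such a culture could hold summed to under 20 CPM in members. The summed level of 6 feeder fibroblast markers was 4.69 CPM in members and 3.31 in others, with Postn and Lum at 0 in members. Definitive endoderm markers summed to 9.01 and 7.99 CPM over 5 genes (Cer1 at 0), neuroectoderm markers to 0.617 and 0.389 over 5 (Neurog2 at 0), and trophoblast markers to 12.2 and 16.2 over 5 (Elf5 at 0). Markers of 2-cell-like cells summed to 0.617 CPM in members and 7.19 in others over 5 genes, and to 0.813 and 5.97 in wild type, with Usp17lc at 0 in members. Haemato-endothelial markers summed to 66.1 and 72.5 CPM over 6, mostly Etv2, an early factor of blood and vessel lineages, at 51.9 and 57.5. At equal depth 21.6% of members and 24.6% of others held an Etv2 UMI. Visceral endoderm markers summed to 24.0 and 10.9 CPM over 4, nearly all of it Rhox5 at 23.3 and 10.3, with Ttr at 0 in members. Depth and doublet scores were varied directly. Among barcodes with 20000 UMIs or more, where the median UMIs off chromosome 11 of members and others differed by 0.016 on the log2 scale, 55 genes off chromosome 11 were higher and 68 lower, and without the highest doublet scores 51 were higher and 61 lower.

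Egln1, the targeted gene, lies on chromosome 8. It was at 20.7 CPM in members and 14.9 in other knockout cells, and at 19.5 and 20.5 in wild type above and below the share, so its transcript was counted in both libraries. Since the altered part is not given, this level does not check the labels. Below the chromosome 8 median it was at a log2 ratio of 0.42, and at or above it of -0.20. Egln2 was at 48.3 and 45.4 CPM, and Hif1a, which encodes the factor that PHD2 acts on, at 54.1 and 55.5.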

How the data were processed

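The authors deposited 1 matrix of whole-number UMI counts per gene and barcode for each library, with no normalization. Per the file headers, Cell Ranger 4.0.0 wrote them. The mm10 build and Seurat are named in the submitters' processing notes, and the sources used here give no other setting. Chromosomes came from GENCODE M21, matched by Ensembl ID for 27722 of 27998 genes. Barcodes with at least 1000 genes and at most 10% mitochondrial UMIs were kept: 7383 of 7713 knockout and 9227 of 9651 wild type barcodes. Scrublet (scanpy 1.11.5) marked 0 barcodes in either library at its automatic threshold, which is no working call, so doublets were kept and the highest scores were removed only as an alternative (456 knockout and 712 wild type barcodes). Of 33 chromosome 11 genes left out of the share, 24 were at 500 CPM or more and the other 9 were Rpl or Rps genes.

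Summed counts covered 16199469 UMIs off chromosome 11 in members and 136102485 in the other knockout cells. Named off chromosome 11 were the 10 highest and 10 lowest log2 ratios at 50 CPM or more (predicted, Rpl and Rps genes left out), up to 5 genes per list, streak and pluripotency markers and the PHD genes. On chromosome 11 they were the 5 most abundant, 3 highest and 3 lowest genes left out of the share, the 3 highest and lowest in it, and role groups. Other genes named, among them Psmb5, Psme2, Gbp3, Wnt4, Wnt8a, Triml2, Irgm1, Igtp and Xaf1, were chosen after their values were seen. The members and the 48 lists were chosen with earlier results of these data known. In all, 3 listed symbols were not found, and 1 gene is not reported here. Thinning was drawn once with a fixed seed. The calls and intervals were tested on simulated counts drawn without variation between cells. That checks the computation and not the spread between cells. Analyses used Python 3.11.15, numpy 2.4.6, scipy 1.17.1 and pandas 2.3.3.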

Additional observations from a re-analysis of the deposited data

Results flagged for a closer look

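Rhox5, an X-linked homeobox gene, went opposite ways in sets of cells compared alike. Members were higher than other knockout cells below the chromosome 8 median (log2 ratio 1.71, 30.0 against 8.45 CPM) and lower at or above it (-1.21, 4.66 against 12.1 CPM). It was higher in members over the whole knockout (1.11) and lower above the share in wild type (-1.02, from 4 UMIs). Exoc3l, on chromosome 8, was lower in knockout members (-0.85) and higher above the share in wild type (0.58, from 15 UMIs). These differences in direction were not tested, since each set of cells comes from 1 library.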

How the results depend on the processing

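With 20 other settings, none added later, 1018 values were recomputed. Of these 980 stayed within their interval, within 1.5 times the count or, for single genes, within 1.5-fold, 38 moved further and 0 called values changed sign. The named 20 genes off chromosome 11 kept their sign in all 380 values. They were picked for extreme log2 ratios in these cells, which makes a change of sign unlikely. Rhox5, called higher over the whole knockout, was not among the genes recomputed and stood at -1.21 at or above the chromosome 8 median. Members were 8.79% of knockout barcodes with a gap of 0.5 points on either side of the limit, 13.5% among barcodes with 20000 UMIs or more and 13.8% below the chromosome 8 median; with the number of members fixed, no share can be given. Wild type barcodes above the share were 1.16% with no limits on barcodes. The median log2 ratio of chromosome 11 genes in the share was 0.63 with the gap, 0.58 at 20000 UMIs or more, 0.56 below the chromosome 8 median, 0.54 as CPM over all UMIs, 0.53 with median-of-ratios scaling and 0.62 as a mean over cells, and that of the genes left out was 0.46 as CPM over all UMIs and 0.45 with median-of-ratios scaling. Genes higher off chromosome 11 numbered 86 at or above the chromosome 8 median (genes measured in those cells), 33 as CPM over all UMIs, 257 and 8 with a filter of 5 and 100 CPM, and 323 at the lower fold limit; genes lower numbered 99 at or above the chromosome 8 median, 82 with median-of-ratios scaling, 126 and 20 with those filters, and 207 at the lower fold limit. The difference in cells with a T UMI was -7.00 points at or above the chromosome 8 median, and the log2 ratio of median UMIs (0.20) was 0.016 at 20000 UMIs or more and 0.12 at or above that median. The causes were not tested, except that a fold or filter changes which genes can count. No paired analysis was possible because each group is 1 library and no result comes from a test. Depth limits low genes and the 70 wild type cells above the share, where Psmb8 rests on 76 UMIs.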
